A study of Mus musculus with 6 samples.

Results

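The genes described here make, import, export, esterify and sense cholesterol in the mouse intestinal crypt. They are 30 genes chosen by function, each found by its symbol among the 23565 genes of the deposited count table after the version was removed from its Ensembl identifier. They comprise 7 enzymes from acetyl-CoA to farnesyl diphosphate, 11 enzymes from squalene synthesis to cholesterol, 5 regulators of the SREBP pathway, 5 transport genes and 2 esterification enzymes. Bulk RNA sequencing was performed on 6 libraries of epithelial cells sorted from small intestinal crypts, 3 for each genotype. In the Hopx-CreER group (HopXCreER::Rosa26LSL-tdTomato mice) tdTomato-positive cells were collected, and in the Lgr5-CreER group (Lgr5eGFP-IRES-CreER::Rosa26LSL-tdTomato mice) cells positive for both eGFP and tdTomato were collected.

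All mice carried the Rosa26 reporter and received 1 mg of tamoxifen, and crypts were taken 16 h later. CreER is a Cre recombinase that acts once tamoxifen is bound, so tdTomato marks cells in which the Hopx or Lgr5 allele drove the recombinase, together with any daughters made since. Lgr5 is a marker of crypt base columnar stem cells, and Hopx has been used to mark slowly cycling cells higher in the crypt. An eGFP gate was applied in the Lgr5-CreER group and not in the Hopx-CreER group, so genotype and gate cannot be told apart. Age, sex and strain background are not stated in the labels used here. The design gives 3 mice for each genotype but does not tie a library to a mouse, so p-values measure the spread between these libraries. The same number appears in the names of 2 columns, those of Lgr5-CreER libraries 2 and 3, and nothing states whether they come from 1 mouse.

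Library totals ran from 10839306 to 14570555 counts. Levels are given as CPM, counts scaled to library size with TMM factors, and 3 counts were worth 0.201 to 0.278 CPM. Of 8 genes of epithelial identity, 3 (Krt8, Krt18 and Krt19) were higher in Hopx-CreER cells and the others did not pass, and the list summed to 16631 ± 789 against 11178 ± 391 CPM (SD, n = 3). Among those that did not pass, Epcam lay between 2062 and 2420 CPM in the Hopx-CreER group and between 2097 and 2329 CPM in the Lgr5-CreER group. Of 10 Lgr5 stem cell markers, 9 were lower in Hopx-CreER cells, and their summed level was 3368 to 5225 CPM against 10706 to 11217 CPM. All 10 enterocyte markers were higher, with sums of 1442 to 3306 CPM against 460 to 628 CPM and no marker at 0, and 7 of 8 Paneth, 8 of 8 goblet, 8 of 9 enteroendocrine and 7 of 8 tuft markers were higher too. Hopx-CreER library 3 stood apart from its group, and its column is the only one whose name carries an extra tag, the meaning of which is not stated. Over the 8165 genes whose mean reached 10 CPM, its log2 differences from libraries 1 and 2 had SDs of 0.589 and 0.564, against 0.261 to 0.343 for every other pair within a group.

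Cells obtain cholesterol by making it from acetyl-CoA or by taking it up. When sterols in the endoplasmic reticulum are low, the escort protein SCAP carries the transcription factor SREBP-2 to the Golgi, where it is cleaved and released to switch on the synthesis enzymes. When sterols are plentiful, INSIG proteins hold SCAP back. In the small intestine, NPC1L1 takes cholesterol from the lumen into enterocytes, the ABCG5 and ABCG8 pair pumps sterols back out, and SOAT enzymes esterify cholesterol for storage or for packing into chylomicrons.

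RefSeq promoter windows (build GRCm38.p6, 250 bases before to 50 bases after a start site) were matched by symbol for 25 of the 30 genes, the others being Fdft1, Fdps, Soat2, Sqle and Stard4. The windows of 4 genes are shown, each 5′ to 3′ on the strand of its gene. Hmgcs1 stands for the synthesis enzymes, whose levels did not pass the test, and Soat1, Npc1l1 and Abcg8 for the genes that did. Capitals mark CCAAT or its reverse complement ATTGG, the sterol regulatory element TCACNCCAC, and the GATA motif AGATAA or its reverse complement TTATCT. The 4 windows lie at chr13:119690101-119690400 (plus strand, Hmgcs1), chr1:156474279-156474578 (minus strand, Soat1), chr11:6230196-6230495 (minus strand, Npc1l1) and chr17:84682871-84683170 (plus strand, Abcg8).
Hmgcs1: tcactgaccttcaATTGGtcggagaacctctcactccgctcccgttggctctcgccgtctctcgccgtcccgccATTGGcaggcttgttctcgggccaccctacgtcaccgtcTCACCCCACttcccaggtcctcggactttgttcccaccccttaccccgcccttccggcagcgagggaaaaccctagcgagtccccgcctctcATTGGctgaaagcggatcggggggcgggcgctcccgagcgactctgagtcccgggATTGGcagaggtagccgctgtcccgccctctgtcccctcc
Soat1: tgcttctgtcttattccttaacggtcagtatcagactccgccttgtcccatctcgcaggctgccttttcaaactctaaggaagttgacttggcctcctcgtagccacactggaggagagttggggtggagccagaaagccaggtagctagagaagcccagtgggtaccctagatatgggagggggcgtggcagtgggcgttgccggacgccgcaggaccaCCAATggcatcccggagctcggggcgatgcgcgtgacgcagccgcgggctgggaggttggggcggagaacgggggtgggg
Npc1l1: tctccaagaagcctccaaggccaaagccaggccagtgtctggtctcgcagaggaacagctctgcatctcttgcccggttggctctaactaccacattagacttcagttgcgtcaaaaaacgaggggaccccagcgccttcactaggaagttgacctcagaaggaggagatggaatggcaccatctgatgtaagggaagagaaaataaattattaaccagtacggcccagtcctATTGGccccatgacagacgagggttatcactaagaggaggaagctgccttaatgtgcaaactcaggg
Abcg8: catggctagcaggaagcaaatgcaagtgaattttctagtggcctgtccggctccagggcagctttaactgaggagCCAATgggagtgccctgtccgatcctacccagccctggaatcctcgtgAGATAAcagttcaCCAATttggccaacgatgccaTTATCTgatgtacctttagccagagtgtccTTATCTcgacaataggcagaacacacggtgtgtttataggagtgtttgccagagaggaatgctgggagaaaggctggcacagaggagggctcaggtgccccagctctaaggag

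Both strands were searched, and no match overlapped another in these windows. The 25 genes have 34 windows, since some have several start sites. CCAAT was present in 23 of these 34 windows, while 37.4% of all 32851 RefSeq mouse windows hold it. Counted by gene, 22 of the 25 had it in at least 1 window, a count that is not comparable with the share of windows. An exact match to TCACNCCAC, the sterol regulatory element searched for, occurred in the Hmgcs1 window, starting at position -137 from the start site. It was in no other of the 34 windows, and 1.24% of all windows hold it. Variants of this string were not searched for. AGATAA occurred in 3 of the 34 windows, 1 each of Insig2, Abcg5 and Abcg8, against 11.2% of all windows. Abcg5 and Abcg8 are transcribed away from each other, with start sites 110 bp apart in the RefSeq windows, so the 3 AGATAA matches in the window shown for Abcg8 also lie in the Abcg5 window. A second Abcg8 window, at the start site 84676302 within Abcg5, holds no match to any of the motifs. CAAAGTCCA, an HNF4 motif, and ATCAAAG, a TCF motif, were found in 0 of the 34 windows, against 0.475% and 3.73% of all windows. A match is a description of the letters in a window.

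Of the 5 transport genes 3 passed the test, as did both esterification enzymes, while the synthesis enzymes and their regulators did not pass in either direction. Npc1l1, Abcg5, Abcg8 and Soat2 were higher in Hopx-CreER cells by 2.26- to 4.41-fold, and Soat1 was 2.62-fold lower. Of the 30 genes, 29 had enough counts to be tested, and 4 rose, 1 fell and 24 did not pass. A gene is counted here as higher or lower if its adjusted p in edgeR's quasi-likelihood test, over all 12439 genes tested, was under 0.05. By that rule 9.45% of all tested genes (1176) were higher and 3.3% (410) were lower. The corresponding shares of the cholesterol genes were 13.8% and 3.45%, near that background. Scaling by library totals alone, which moved the median log2 fold change of all tested genes by -0.11, gave 938 higher and 729 lower genes, and correction for GC content gave 1167 and 696. Without 1 Lgr5-CreER library, the counts fell to between 606 and 744 higher and 117 to 200 lower genes, and without Hopx-CreER library 2 to 909 and 218.

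Fold changes are of Hopx-CreER cells relative to Lgr5-CreER cells throughout. The median log2 fold change was 0.16 over the 29 tested cholesterol genes and -0.03 over all tested genes. The libraries of the groups did not overlap for 10 of the 29 genes, with 8 higher in every Hopx-CreER library and 2 lower. Among all tested genes, 18.8% lay apart in the higher direction and 16.2% in the lower. For 22 of the 29 genes the 95% interval of the log2 fold change lay between -1 and 1. The summed level of all 30 genes was 2842 ± 21.7 CPM (SD, n = 3) in Hopx-CreER and 2686 ± 82.0 CPM in Lgr5-CreER libraries.

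**Figure D1:**
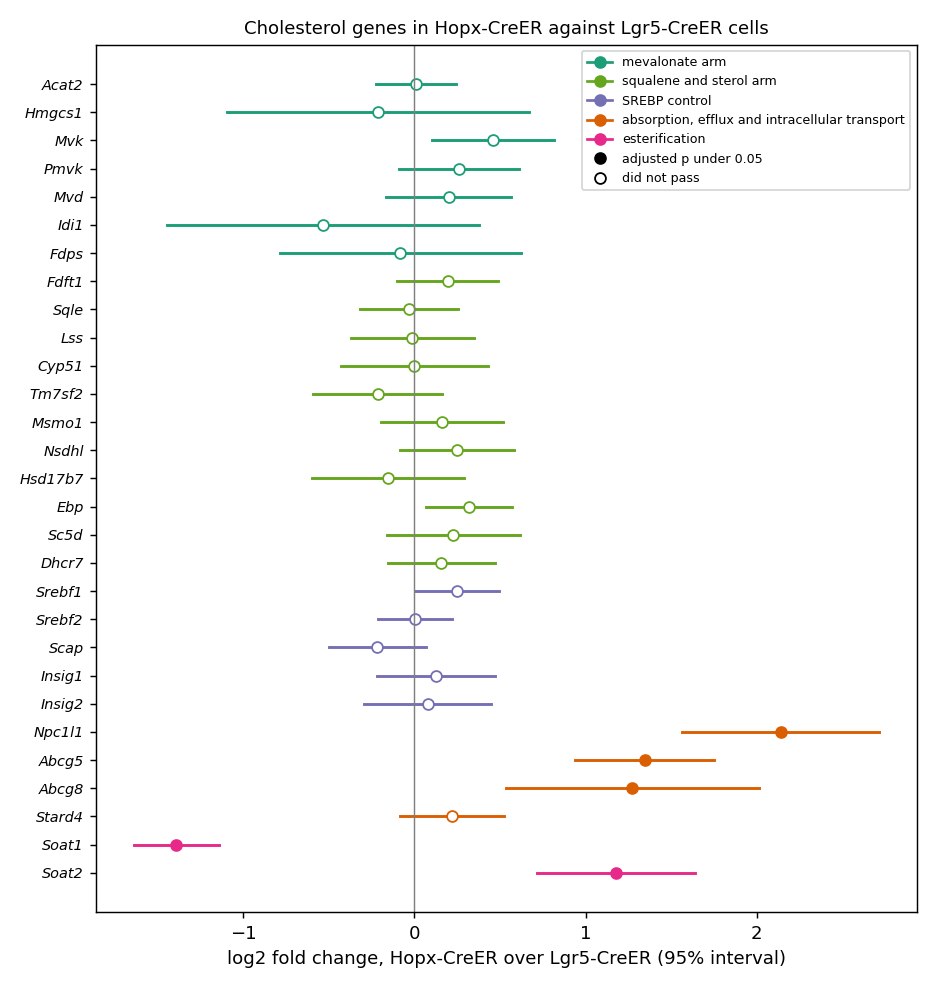
Log2 fold change of Hopx-CreER relative to Lgr5-CreER cells for the 29 tested cholesterol genes on the horizontal axis, with the 95% interval as a bar and genes in rows coloured by role. Filled points passed an adjusted p of 0.05. The 4 genes to the right, between 1.18 and 2.14, are transport and esterification genes, Soat1 stands alone at -1.39, and the synthesis enzymes lie between -0.53 and 0.46.

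The synthesis enzymes were close in level between the sorts. None of the 18 passed the test in either direction with edgeR, and 2, Mvk and Ebp, had an unadjusted p under 0.05. DESeq2 and limma-voom also called 0 of the 18. Their median log2 fold change was 0.08, which became -0.03 with library totals alone and -0.0063 without Hopx-CreER library 2. The interval lay between -1 and 1 for 16 of the 18, so changes larger than 2-fold are outside the intervals of those enzymes. Correction for GC content was the one alternative of 16 that brought a synthesis enzyme past the threshold, Sc5d, with a log2 fold change of 0.44 and an edgeR adjusted p of 0.0408, against 0.23 and 0.436 without the correction.

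Among the 7 enzymes of the mevalonate arm, the log2 fold changes ran from -0.53 to 0.46. Acat2, the thiolase that joins acetyl-CoA units and not one of the cholesterol acyltransferases, stood at 0.01 (edgeR adjusted p = 0.966). Acat2 has a near-identical paralogue, Acat3, and how reads shared by the pair were assigned is not stated. Mvk, which phosphorylates mevalonate, lay at 49.9, 45.1 and 49.4 CPM in Hopx-CreER cells and at 41.2, 30.7 and 33.2 CPM in Lgr5-CreER cells. Those ranges did not overlap, and the log2 fold change was 0.46 ± 0.16 (SE) with an edgeR adjusted p of 0.0948. Pmvk, the next kinase, lay apart only by a narrow margin, at 37.67 to 46.6 CPM against 32.0 to 37.58 CPM. In Hopx-CreER library 1, its lowest, 1 count was worth 0.0753 CPM. The log2 fold change of Pmvk was 0.26 (edgeR adjusted p = 0.319). Mvd, the decarboxylase, stood at 0.20 with overlapping libraries (edgeR adjusted p = 0.466).

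Hmgcs1 and Idi1 were the enzymes whose Hopx-CreER libraries disagreed most. Hmgcs1, the cytosolic HMG-CoA synthase, was at 84.7, 75.0 and 21.6 CPM in Hopx-CreER libraries 1, 2 and 3 and at 76.2, 69.3 and 65.4 CPM in the Lgr5-CreER group. Library 3 was 3.69-fold below the mean of libraries 1 and 2, while those libraries lay within 10 CPM of the Lgr5-CreER range. The log2 fold change of Hmgcs1 was -0.22 (95% interval -1.10 to 0.67), and 0.17 without library 3. Idi1, the isopentenyl diphosphate isomerase, was at 11.6, 10.9 and 3.53 CPM against 10.4, 14.8 and 12.7 CPM. Its log2 fold change was -0.53 (95% interval -1.45 to 0.38), and -0.18 without library 3. Fdps, the farnesyl diphosphate synthase, had only 3.39 to 5.75 CPM in any library. Its exons overlap 1124 bp of the exons of Gm43738, a gene on the same strand that is not a row of the table, so its level is uncertain.

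In the squalene and sterol arm the 11 log2 fold changes ran from -0.22 to 0.32. Ebp, the sterol isomerase, was at 140.2, 150.1 and 164 CPM in Hopx-CreER libraries and at 125, 112 and 127 CPM in Lgr5-CreER libraries. Each Hopx-CreER library exceeded each Lgr5-CreER library, and the log2 fold change was 0.32 ± 0.11 (SE) with an edgeR adjusted p of 0.0993. Tm7sf2, a sterol reductase, lay apart in the other direction, at 22.9 to 23.7 CPM against 25.2 to 30.4 CPM, with a log2 fold change of -0.22 (edgeR adjusted p = 0.447). Its exons overlap those of Vps51 on the same strand by 532 bp.

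Sqle, the squalene epoxidase and a rate-controlling step, was at 214, 229 and 168 CPM against 212, 205 and 208 CPM. Its ranges overlapped, and the log2 fold change was -0.03 (95% interval -0.32 to 0.25). Lss, which closes the sterol ring system, stood at -0.01, and Cyp51, the lanosterol demethylase, at 0.00 with edgeR adjusted p-values of 0.966 and 0.996. Fdft1, the squalene synthase, stood at 0.19, Msmo1 at 0.16, Nsdhl at 0.25 and Hsd17b7 at -0.15, and none passed. Msmo1, Nsdhl and Hsd17b7 take part in removing methyl groups from the ring. Sc5d and Dhcr7, which act late in the pathway, stood at 0.23 and 0.16 (edgeR adjusted p = 0.436 and 0.505). Fdft1 shares 774 bp of exon with Ctsb, Lss 381 bp with 4930483K19Rik and Cyp51 166 bp with Akap9, all on opposite strands, and the library kit does not mark strand.

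The summed level of the 18 enzymes was 1623, 1744 and 1410 CPM in Hopx-CreER libraries 1, 2 and 3 and 1540, 1399.6 and 1522 CPM in the Lgr5-CreER group. The group means were 1592 ± 169 and 1487 ± 76.5 CPM (SD, n = 3), and the ranges overlapped. Library 3 had the lowest value of the Hopx-CreER group for 11 of the 18 enzymes.

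**Figure D2:**
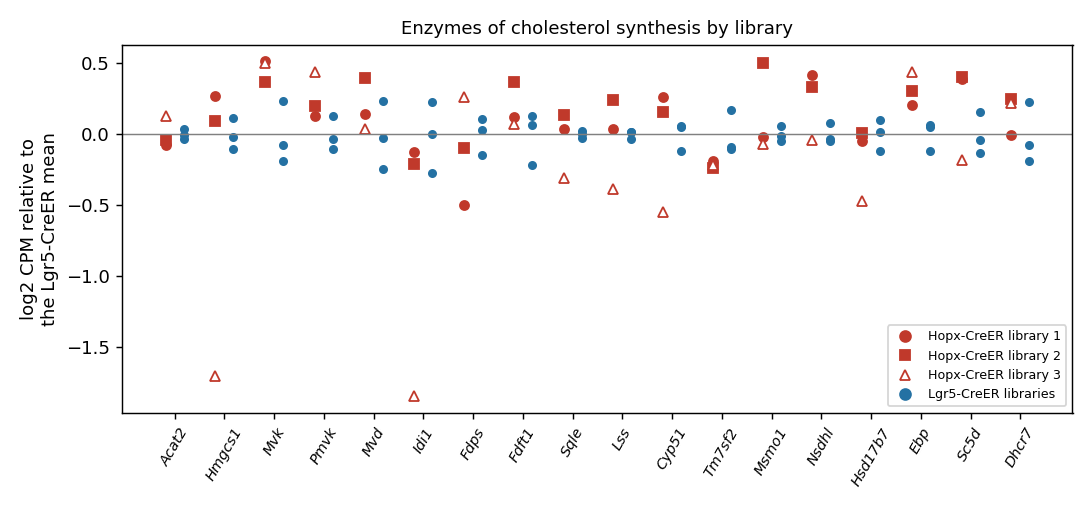
Log2 of the TMM-scaled CPM of each of the 18 synthesis enzymes relative to its Lgr5-CreER mean (vertical axis), in each of the 6 libraries. Most enzymes are level across libraries. Hmgcs1 and Idi1 are low in Hopx-CreER library 3, where their levels were 21.6 and 3.53 CPM.

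The departure of Hopx-CreER library 3 from libraries 1 and 2 went with the GC content of the transcript. Over 12426 tested genes with a GC value, Spearman's rho between GC content and the log2 difference of library 3 from libraries 1 and 2 was 0.472. It was 0.650 over the 29 cholesterol genes and 0.752 over the 18 enzymes, as descriptions across genes of the same 3 libraries. Hmgcs1, Idi1 and Cyp51 were low in library 3, and Abcg8, Soat2, Npc1l1 and Abcg5 were high. The part of GC content in these differences was not tested. Without library 3, 0 of the 18 enzymes passed in edgeR and their median log2 fold change was 0.16.

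**Figure D3:**
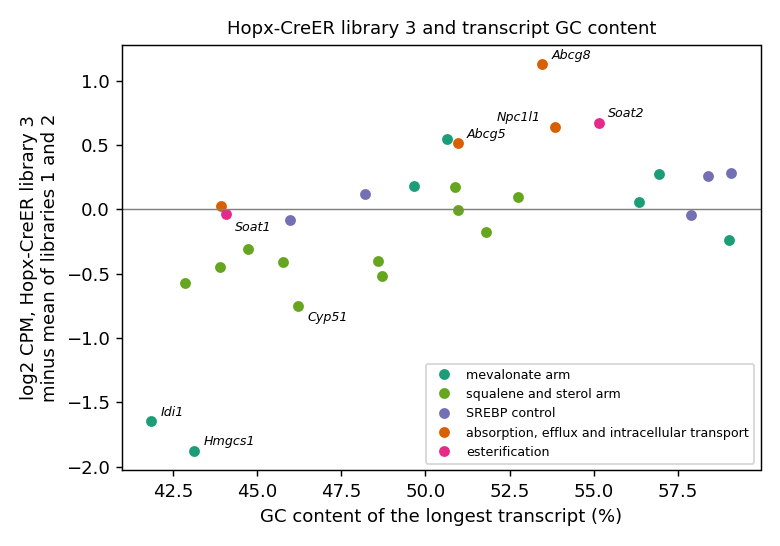
Log2 difference of Hopx-CreER library 3 from the mean of libraries 1 and 2 (vertical axis) against the GC content of the longest transcript in percent (horizontal axis) for 29 cholesterol genes, coloured by role. Idi1 and Hmgcs1 lie lowest, at -1.65 and -1.88, and Abcg8 highest, at 1.13.

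Of the 5 genes that govern SREBP processing, 0 passed in edgeR, and 1, Srebf1, had an unadjusted p under 0.05. DESeq2 and limma-voom called 0 of the 5. Srebf2, which encodes SREBP-2, was at 252, 241 and 238 CPM in Hopx-CreER libraries and at 253, 230.4 and 245 CPM in Lgr5-CreER libraries. Its groups overlapped, and the log2 fold change was 0.01 (95% interval -0.21 to 0.22; edgeR adjusted p = 0.974). Srebf1, which encodes the SREBP-1 proteins of fatty acid synthesis, was higher in every Hopx-CreER library, at 209, 203 and 246 CPM against 185, 187 and 181 CPM. Its log2 fold change was 0.25 ± 0.11 (SE) with an edgeR adjusted p of 0.173, and it was 0.02 after correction for GC content. Scap stood at -0.22 (edgeR adjusted p = 0.306), and passed in the GC-corrected fit at -0.45 (edgeR adjusted p = 0.0168). Insig1, itself a target of SREBP in other cells, and Insig2 stood at 0.13 and 0.08 (edgeR adjusted p = 0.629 and 0.789). Srebf1 and Scap share 109 bp and 985 bp of exon with Rai1 and 5830462I19Rik on the opposite strand.

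Among the transport genes, Npc1l1, Abcg5 and Abcg8 were higher in Hopx-CreER cells. Npc1l1, the brush border cholesterol transporter that ezetimibe blocks (chromosome 11, 6211013 to 6230143, minus strand, GRCm38), was at 167, 131 and 231 CPM in Hopx-CreER libraries and at 37.8, 29.4 and 52.8 CPM in Lgr5-CreER libraries. Every Hopx-CreER library was more than 2-fold above every Lgr5-CreER library, with library 3 highest in each group. The log2 fold change was 2.14 ± 0.26 (SE; 95% interval 1.56 to 2.72; edgeR adjusted p = 0.00122), or 4.41-fold.

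Abcg5 (chromosome 17, 84658234 to 84683011, minus strand, GRCm38) and Abcg8 (84676302 to 84700333, plus strand) encode the partners of the sterol exporter. Abcg5 was at 62.5, 57.5 and 85.7 CPM against 25.0, 26.8 and 29.2 CPM, with no overlap and a log2 fold change of 1.34 ± 0.18 (SE; edgeR adjusted p = 0.00203). Abcg8 was at 26.7, 24.5 and 56.1 CPM against 12.3, 13.7 and 18.2 CPM, again with no overlap, and Hopx-CreER library 3 was more than 2-fold above libraries 1 and 2. Its log2 fold change was 1.27 ± 0.33 (SE; edgeR adjusted p = 0.0342), and 0.78 without library 3 (edgeR adjusted p = 0.0284). The call for Abcg8 was lost without Lgr5-CreER library 1, 2 or 3 (edgeR adjusted p = 0.119, 0.128 and 0.067), with limma-voom (0.057), with library totals alone (0.0501) and when the columns that share a number were summed (0.0953). The exons of the pair overlap by 82 bp on opposite strands. Per length of transcript, the Abcg5 level was 3.65, 3.66 and 2.38 times that of Abcg8 in the Hopx-CreER libraries and 3.16, 3.04 and 2.50 times in the Lgr5-CreER libraries, so the ratio overlapped while both levels differed.

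Stard4, a soluble carrier of cholesterol between membranes, was at 52.6, 63.7 and 58.8 CPM against 51.2, 53.1 and 46.0 CPM. Its ranges overlapped and its log2 fold change was 0.22 (edgeR adjusted p = 0.336). Abca1, the exporter that loads cholesterol onto apolipoprotein A-I, was too low to test, with 6, 9 and 1 counts in Hopx-CreER libraries and 0, 5 and 0 counts in Lgr5-CreER libraries. No fold is given for it.

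The acyltransferases that esterify cholesterol moved in opposite directions. Soat1, the widely expressed isoform of the endoplasmic reticulum (chromosome 1, 156424525 to 156474331, minus strand, GRCm38), was at 157, 128 and 138 CPM in Hopx-CreER libraries and at 362, 386 and 363 CPM in Lgr5-CreER libraries. The Hopx-CreER libraries lay far below the Lgr5-CreER libraries, library 3 in the middle of its group. The log2 fold change was -1.39 ± 0.11 (SE; 95% interval -1.64 to -1.14; edgeR adjusted p = 0.000374). Soat2, the isoform of enterocytes and hepatocytes (chromosome 15, 102150526 to 102163469, plus strand), was at 77.9, 65.4 and 114 CPM against 39.9, 33.8 and 40.1 CPM. All Hopx-CreER libraries were above all Lgr5-CreER libraries, library 3 most. Its log2 fold change was 1.18 ± 0.21 (SE; 95% interval 0.71 to 1.64; edgeR adjusted p = 0.00647), and 0.90 without library 3 (edgeR adjusted p = 0.00168).

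**Figure D4:**
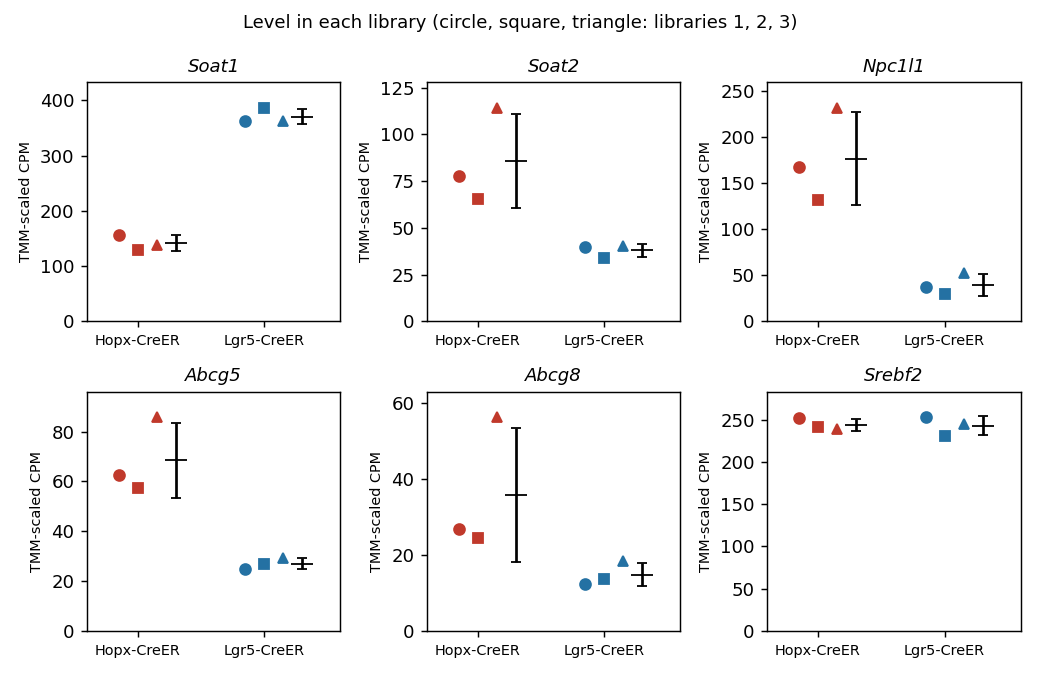
TMM-scaled CPM of Soat1, Soat2, Npc1l1, Abcg5, Abcg8 and Srebf2 in each library, 3 per group, with the group mean and SD as black bars and a vertical axis from 0. The groups are apart in the first 5 panels, Soat1 in the downward direction, and overlap for Srebf2 (252, 241 and 238 CPM against 253, 230.4 and 245 CPM).

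Because levels of different genes are comparable only per length, the esterification pair was also set side by side as CPM per kb of transcript. Soat1 stood at 16.9 ± 1.74 CPM per kb (SD, n = 3) in Hopx-CreER and 44.2 ± 1.62 CPM per kb in Lgr5-CreER libraries. Soat2 stood at 38.9 ± 11.4 and 17.2 ± 1.63 CPM per kb. The ratio of the Soat1 to the Soat2 level per length was 0.532, 0.517 and 0.320 in the Hopx-CreER libraries and 2.40, 3.01 and 2.38 in the Lgr5-CreER libraries. By this measure Soat2 was the more abundant of the pair in each Hopx-CreER library and Soat1 in each Lgr5-CreER library. The order depends on the transcript lengths used, 8.371 kb for Soat1 and 2.208 kb for Soat2. Which transcripts the cells made was not tested. In CPM, before division by length, Soat1 was above Soat2 in every library of both groups.

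**Figure D5:**
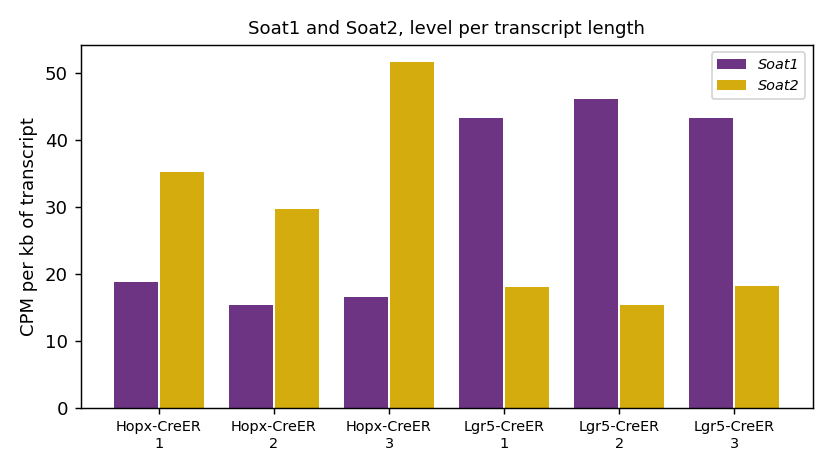
Level of Soat1 and Soat2 in CPM per kb of transcript (vertical axis, from 0) in each of the 6 libraries, 1 bar per gene and library. Soat2 is the taller bar in the 3 Hopx-CreER libraries (ratio of Soat1 to Soat2 0.320 to 0.532) and Soat1 in the 3 Lgr5-CreER libraries (2.38 to 3.01). The order of the bars depends on the transcript lengths used.

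On the same scale of CPM per kb, the most abundant synthesis enzymes in Lgr5-CreER cells were Sqle at 75.5 ± 1.25, Acat2 at 70.6 ± 1.76 and Ebp at 69.6 ± 4.81 (SD, n = 3). In Hopx-CreER cells the order of the means was Ebp at 86.9 ± 6.84, Sqle at 73.7 ± 11.5 and Acat2 at 71.0 ± 5.43 CPM per kb. Ebp was above Sqle in each Hopx-CreER library, while Sqle was above Acat2 in libraries 1 and 2 and below it in library 3. These differences between genes were not tested. Fdft1 and Msmo1 followed in both groups, at 55.8 and 55.2 CPM per kb in Hopx-CreER and 48.8 and 49.3 in Lgr5-CreER cells. The lowest were Idi1, Fdps and Hsd17b7, with means from 2.87 to 4.85 CPM per kb, though the level of Fdps is uncertain because of its overlap with Gm43738. Npc1l1, at 8.95 ± 2.66 CPM per kb in Lgr5-CreER cells, reached 39.5 ± 11.4 in Hopx-CreER cells, close to the level of Cyp51 there (39.4 ± 10.8).

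Npc1l1, Abcg5, Abcg8 and Soat2 were higher in Hopx-CreER cells, as were the enterocyte markers. The summed enterocyte markers were at 1804, 1442 and 3306 CPM in Hopx-CreER libraries 1, 2 and 3 and at 489, 460 and 628 CPM in the Lgr5-CreER group. Each of the 4 genes had the same order as this sum within the Hopx-CreER group, library 2 lowest and library 3 highest. The summed Paneth markers had that order too, at 15580, 14836 and 32262 CPM against 1651 to 3247 CPM in the Lgr5-CreER group, as did the epithelial identity sum. In the Lgr5-CreER group, Npc1l1 and Soat2 kept the order of the enterocyte sum, while Abcg5 and Abcg8 were lowest in library 1. Soat1 and the summed Lgr5 stem cell markers were both lower in Hopx-CreER cells, but their order within groups differed. In the Hopx-CreER group Soat1 was lowest in library 2 and the stem cell sum in library 3, and in the Lgr5-CreER group Soat1 was highest in library 2, where the stem cell sum was lowest. The part of these cell type differences in the results was not tested. In bulk libraries, fewer cells of a type and less RNA per cell cannot be told apart. Immune markers summed to 3.84 to 6.96 CPM against 2.42 to 3.41 CPM. Markers of stroma, endothelium and muscle summed to 25.6 to 36.9 CPM against 2.21 to 4.61 CPM, of which Vim, which was higher, made up most, and Col1a1 and Cdh5 were at 0 in every library.

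A further list of 23 sterol pathway genes outside the 30 was read from the same fit, and 2 were higher, 0 lower and 21 did not pass in edgeR. The share higher, 8.70%, was near the 9.45% of all tested genes. No gene of that list was lower at an unadjusted p under 0.05 either, nor lower by DESeq2 or limma-voom, and its median log2 fold change was 0.07. Mttp, which loads lipid onto nascent chylomicrons, was at 720.5, 475 and 608 CPM against 204, 241 and 277 CPM, a log2 fold change of 1.32 ± 0.17 (SE; edgeR adjusted p = 0.00178). Apoa1, the apolipoprotein that accepts exported cholesterol, was at 105, 98.6 and 588 CPM against 14.5, 16.4 and 22.8 CPM, a log2 fold change of 3.88 ± 0.68 (SE; edgeR adjusted p = 0.00678) that was 2.49 without library 3. Both belong to the enterocyte marker list as well. Nr1h3, which encodes the sterol sensor LXR alpha that controls Abcg5 and Abcg8 in liver and intestine, stood at 0.62 and did not pass (edgeR adjusted p = 0.0575). Nr1h2, which encodes LXR beta, stood at 0.18 with overlapping libraries (edgeR adjusted p = 0.464). Per length of transcript Nr1h2 had the higher mean in Hopx-CreER cells, at 88.1 against 40.8 CPM per kb. The part of either gene in the levels of Abcg5 and Abcg8 was not tested.

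Of 12 genes of fatty acid synthesis known as SREBP-1 targets, 11 were tested, 2 were higher and 2 lower, and Scd1 was at 0 in every library. Each count is 18.2% of the 11, against 9.45% higher and 3.3% lower among all tested genes. The count of lower genes was 4 with library totals alone and 2 or 3 in the other alternatives. The median log2 fold change of the 11 was -0.51, and 8 were negative. Fads1 and Fads2, the desaturases of polyunsaturated fatty acids, fell. Fads1 was at 319, 329 and 295 CPM against 517, 503 and 512 CPM, a log2 fold change of -0.70 ± 0.10 (SE; edgeR adjusted p = 0.00229). Fads2 was at 516, 470.3 and 476 CPM against 796, 703 and 706 CPM, a log2 fold change of -0.59 ± 0.10 (SE; edgeR adjusted p = 0.00649). Neither group overlapped the other for these desaturases.

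Mid1ip1, which promotes the polymerization of acetyl-CoA carboxylase, and Me1, the NADPH-making malic enzyme, rose. Mid1ip1 was at 83.5, 101 and 116 CPM against 41.2, 47.0 and 52.4 CPM, a log2 fold change of 1.10 ± 0.16 (SE; edgeR adjusted p = 0.0028). Me1 was at 50.6, 10.4 and 21.2 CPM against 4.08, 3.80 and 5.30 CPM, a log2 fold change of 2.64 ± 0.52 (SE; edgeR adjusted p = 0.0109). Me1 varied more within the Hopx-CreER group (27.4 ± 20.8 CPM, SD, n = 3) than within the Lgr5-CreER group (4.39 ± 0.80 CPM). Without Hopx-CreER library 1 the log2 fold change of Me1 was 1.87 (edgeR adjusted p = 0.0179). Its call was lost without Lgr5-CreER library 2 (edgeR adjusted p = 0.0581) and after summing the columns that share a number (0.0519).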

How the data were processed

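RNA was measured in 6 libraries of sorted crypt cells. Per the labels' protocols, sorting was into TRIzol LS, RNA was concentrated with RNeasy MinElute columns, and the SMART-Seq v4 and Nextera XT kits were used, which do not mark strand. What the authors deposited was 1 table of raw counts, whole numbers and not normalized, with 1 row for each mouse Ensembl gene. The submitters' processing notes name GRCh38, kallisto and edgeR; that build is human and the identifiers are mouse, and the counting settings are not given in the sources used here. Columns name the sorted population but no replicate, so library numbers follow column order and are names only.

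Symbols, positions, lengths and GC content came from GENCODE M21 (GRCm38), which matched 23479 of 23565 identifiers, and 2443 genes were at 0 in every library. CPM per kb divides CPM by the longest principal transcript. Groups were compared in R 4.3.3 with edgeR 4.0.16: TMM factors, filterByExpr, the quasi-likelihood F-test, and p-values adjusted by Benjamini-Hochberg over all 12439 tested genes, at 0.05. SEs and 95% intervals come from the F statistic, and SDs are between libraries. The biological coefficient of variation was 22.5%. Counting floors do not cover amplification, since reads carried no molecular identifiers. Intervals between libraries do not cover an amplification bias shared by all libraries.

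The 30 genes, the further lists and the tests were chosen with earlier results of these data known. Every one of the 30 is accounted for by role, with values in each library where the adjusted p was under 0.05 or the log2 fold change was at least 1 in size; of the further lists, the genes that passed are named, and 2 further sterol pathway genes are not reported here. Library values of Hmgcs1, Idi1, Mvk, Ebp, Sqle, Srebf1, Srebf2 and Stard4, and the genes Nr1h3 and Nr1h2, were added after their values were seen. The fit was repeated with DESeq2 1.42.0, limma-voom (limma 3.58.1), RLE factors, upper quartile factors, library totals alone, no filter, a filter of at least 1 CPM in 3 libraries, a threshold of 0.01, leaving out each library, GC offsets (spline with 5 degrees of freedom per library), and the sum of the columns that share a number.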

Additional observations from a re-analysis of the deposited data

How the results depend on the processing

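Soat1 (log2 fold change -1.51 to -1.18), Soat2 (0.90 to 1.34), Npc1l1 (1.89 to 2.39) and Abcg5 (1.14 to 1.46) kept their direction and stayed under an adjusted p of 0.05 in all 16 alternatives, and under 0.01 in the reported fit. Their largest adjusted p was 0.00399, 0.0407, 0.0083 and 0.0152. Abcg8 kept its direction and missed the threshold in 7 of 16. Over the alternatives, 3 to 5 of the cholesterol genes were higher and 1 to 2 lower, the second lower gene being Scap, with GC offsets. The median log2 fold change of the cholesterol genes was 0.044 on library totals alone, 0.050 after GC correction, and 0.09 to 0.16 when libraries were left out in turn. Over all tested genes, the count of lower genes was 729 with library totals alone, 694 with DESeq2, 696 with GC offsets, 131 when the columns sharing a number were summed and 99 at a threshold of 0.01, and the count of higher genes was 659 and 555 in the last pair. Leaving out 1 library gave 606 to 1275 higher and 117 to 593 lower genes. None of the named genes that passed changed direction, while the median of the synthesis enzymes changed sign with library totals alone (-0.03) and without Hopx-CreER library 2 (-0.0063). With 2 libraries left in a group, the spread is estimated from 5 libraries. No paired analysis was possible because the columns of the table carry no replicate number. At these depths Abca1 and Scd1 could not be tested.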
